A study of Homo sapiens with 12 samples.

Results

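Axonal transport motors and adaptors are described here through 40 genes: kinesin motors and light chains, cytoplasmic dynein, its activator dynactin, and adaptors that join these motors to cargo. The members were chosen by name. The array held 68 probes for them, of which those with a detection p-value under 0.01 on 4 or more of the 12 arrays were retained. This left 46 probes for 35 of the 40 genes, among 9833 genes with a kept probe in the series. No probe of KIF5A, KIF1C, KIF3A, KLC4 or DYNC1LI1 passed, and no dropped member probe was detected on more than 1 array. Because the filter can pass a probe through a single group, the 46 probes are not the whole list.

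The cells were SH-SY5Y, a neuroblastoma line of the sympathoadrenal lineage, and every group came from this line. SETD1A encodes a histone H3 lysine 4 methyltransferase, and loss-of-function variants in this gene raise the risk of schizophrenia. Cells were transfected by lipofection with a control siRNA or with 1 of 2 siRNAs against SETD1A, s18789 or s18790, and collected 96 hours later. Each of the 3 groups had 4 samples, with total RNA measured on 1 bead array per sample. Whether the samples were grown as separate cultures is not stated, and the spread that p-values rest on may therefore be technical.

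Most axonal proteins are made in the cell body, and vesicles, mitochondria and cytoskeletal parts are carried along microtubules. Kinesins move most cargo outward to the axon tip, and cytoplasmic dynein with dynactin moves it back to the cell body. Adaptors decide which cargo a motor holds: kinesin light chains and JIP scaffolds for vesicles, TRAK and Miro proteins for mitochondria, and BICD proteins for dynein cargo. In dividing cells such as this line dynein, dynactin and their regulators also position the spindle and the nucleus.

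Promoter windows are shown for KLC1 and KIF1A, whose probes changed, with KIF1B beside its relative KIF1A because neither of its probes passed the test. MAPK8IP1, whose probe also changed, had no entry in the promoter table. Each window is the 250 bases before the RefSeq gene start on GRCh38.p14, 5′ to 3′ on the gene's own strand, with every CG dinucleotide in capitals. Which start these cells use was not measured. KLC1 lies on the plus strand at chr14:103628961-103629210, KIF1A on the minus strand at chr2:240821404-240821653, and KIF1B on the plus strand at chr1:10210320-10210569.
KLC1: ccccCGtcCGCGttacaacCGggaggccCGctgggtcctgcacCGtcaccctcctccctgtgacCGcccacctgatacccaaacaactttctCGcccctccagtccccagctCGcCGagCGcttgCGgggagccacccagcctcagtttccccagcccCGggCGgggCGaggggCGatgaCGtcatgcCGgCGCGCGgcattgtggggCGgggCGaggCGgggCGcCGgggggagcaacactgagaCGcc
KIF1A: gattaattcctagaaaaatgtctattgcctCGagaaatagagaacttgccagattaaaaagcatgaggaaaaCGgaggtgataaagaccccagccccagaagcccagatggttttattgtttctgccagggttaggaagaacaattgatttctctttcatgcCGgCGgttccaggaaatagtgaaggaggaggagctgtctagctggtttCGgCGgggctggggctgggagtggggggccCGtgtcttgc
KIF1B: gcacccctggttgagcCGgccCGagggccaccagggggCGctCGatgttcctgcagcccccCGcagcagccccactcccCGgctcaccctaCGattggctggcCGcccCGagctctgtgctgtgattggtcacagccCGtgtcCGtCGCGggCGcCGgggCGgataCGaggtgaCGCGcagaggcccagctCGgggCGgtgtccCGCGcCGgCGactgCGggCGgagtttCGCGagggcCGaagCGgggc

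The KLC1 window held 27 CG dinucleotides and 72.8% G or C, that of KIF1B 31 and 74.8%, and that of KIF1A 7 and 49.6%. The median over the 29 tested member genes with a window was 24 CG dinucleotides, against 11 over 27305 promoters of the same length. Those promoters include genes without a kept probe, and shares over detected genes alone were not computed. The contrasts here and below are therefore not shown to be particular to transport genes. Windows were searched on both strands for the 5 motifs given next, none of which contains another. The motif GGGCGG occurred 3 times for KLC1, 4 times for KIF1B and 0 times for KIF1A, and was present in 23 of the 29 member windows and 42.3% of all promoters. The motif TGACGTCA occurred in 3 of the 29 member windows, once in that of KLC1, and in 1.77% of all promoters. The motif CCAAT was found in 10 of the 29 and in 33.0% of all promoters. For TATAAA the figures were 1 and 11.1%, and for CACGTG 1 and 6.49%. These matches describe the letters of the windows and no binding was measured.

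The highest SETD1A value of either siRNA group was below the lowest control value. Its probe read 7.52, 7.64, 7.50 and 8.03 in controls, 7.34, 7.22, 7.10 and 7.30 with s18789, and 6.98, 7.45, 6.90 and 6.83 with s18790 (log2 normalized intensity). The level was 64.6% of control with s18790 (limma adjusted p = 0.0276) and 74.1% with s18789 (adjusted p = 0.616), and the exact two-sided permutation test gave 0.0286 for each, the smallest p that 4 against 4 arrays allow. The s18790 call ended without the filter on dim probes (0.0502), with the s18789 arrays left out of the model (0.0999), and without control replicate 1 (adjusted p = 0.0507), control replicate 2 (0.0683), s18790 replicate 1 (0.0730) or s18790 replicate 4 (0.0660). s18790 replicate 2 and control replicate 4 stood apart from their groups: 45.2% and 19.1% of all 15922 kept probes lay more than 0.5 (log2) from the mean of the other arrays of the group. s18790 replicates 3 and 4 had 17.6% and 12.3%, and the other 8 arrays 1.52% to 6.30%, among them s18790 replicate 1 with 3.20%. The mean that s18790 replicates 1, 3 and 4 were each set against holds replicate 2. On the first principal component s18790 replicate 2 scored 83.7 and control replicate 4 scored 26.8, against -23.7 to 12.7 for the other arrays. Of the sympathoadrenal markers 7 of 8 measured were detected on all 12 arrays, while tyrosine hydroxylase was detected on none. All 3 Schwann markers measured, SOX10, S100B and ERBB3, were detected on no array. Of 5 epithelial markers, CDH1, KRT8, KRT18 and KRT19 were detected on none and EPCAM on 4 control, 3 s18789 and 2 s18790 arrays. Of 4 immune markers, PTPRC and CD3E were detected on none, CD68 on all 12 and CD14 on 2 control and all 8 siRNA arrays. Of the mesenchymal markers 3 of 6 were detected on all arrays, with a summed level (log2) of 13.16 to 13.23 in controls, 12.93 to 13.15 with s18789 and 13.06 to 13.28 with s18790.

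With s18790, 3 transport genes rose: KLC1, KIF1A and MAPK8IP1, through 4 of the 46 member probes, and no member fell. That is 8.70% of the member probes, against 8.32% of all 15922 probes called in either direction and 4.03% called higher, so the share called was near the background. Called means a limma adjusted p under 0.05 over all kept probes. With s18789 no member probe was called, where 0.0942% of all probes were, and 4 member probes had an unadjusted p under 0.05 against 6.02% of all probes. Among these 4, KIF21B and DCTN6 probe ILMN_2204983 passed the filter mainly through s18789, in which they were high, so they are no separate evidence. The s18790 count was 2 without control replicate 1 or 2, s18789 replicate 1 or 4, or s18790 replicate 1, and 1 without control replicate 3, and the s18789 count was 1 without s18790 replicate 2. Between the siRNAs 1 member probe, that of KIF1A, was called higher with s18790, where 4.20% of all probes were called. That count was 0 without s18789 replicate 3 or 4 or s18790 replicate 1, and 2 without control replicate 4 or s18790 replicate 3. Without both arrays that stood apart, 6 member probes were called for s18790, 1 for s18789 and 3 in the comparison of both, where 17.6%, 0.779% and 10.3% of all probes were called. The 6 include KIF21B, detected on no control array, which passed the filter only through siRNA arrays, on which it was high. In these bulk samples less RNA per cell and fewer cells of a kind cannot be told apart.

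**Figure D1:**
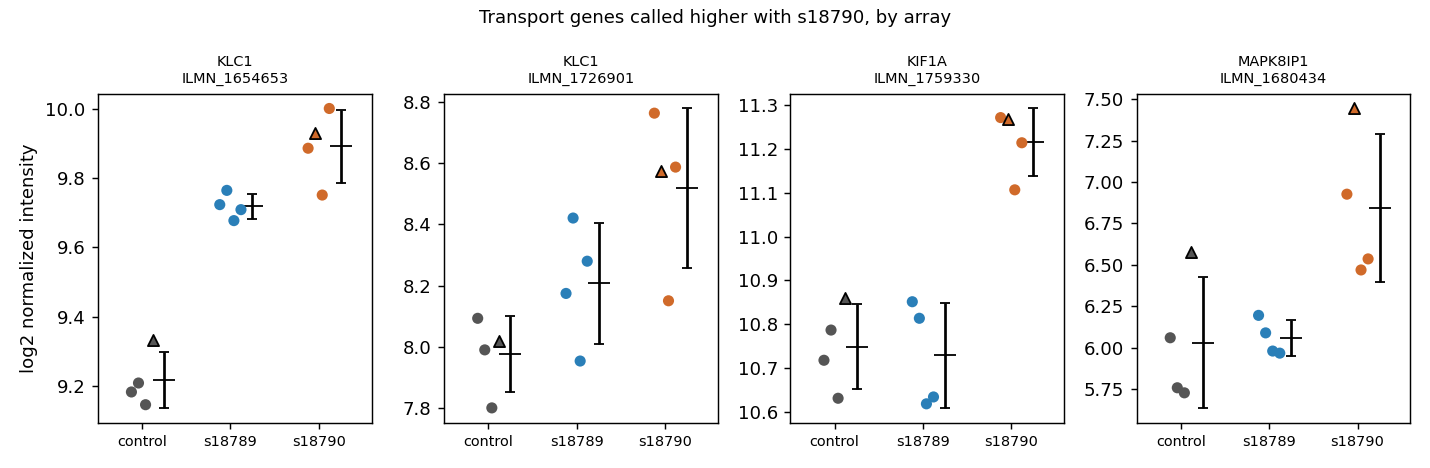
Log2 normalized intensity (y axis) of the 4 transport probes called higher with s18790, by siRNA group (x axis). Points are single arrays, triangles mark control replicate 4 and s18790 replicate 2, and bars show the mean and SD of 4 arrays. Both siRNA groups lie above every control array for KLC1 probe ILMN_1654653, while KIF1A is higher in s18790 alone.

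Among the kinesin light chains, which hold cargo on kinesin-1, KLC1 rose with s18790 at both of its kept probes. Probe ILMN_1654653 of KLC1 read 9.18, 9.21, 9.15 and 9.33 in controls, 9.72, 9.76, 9.68 and 9.71 with s18789, and 9.89, 9.93, 9.75 and 10.00 with s18790. Every array of either siRNA lay above every control array, by this probe. With s18790 it rose 1.60-fold (log2 difference 0.68 ± 0.09 SE, 95% interval 0.48 to 0.87, n = 4 against 4, limma adjusted p = 0.00103), and it remained called under each of the 22 alternatives run. With s18789 the difference of the same probe was 0.50 (interval 0.31 to 0.70) and its adjusted p over all probes was 0.0950. That value passed the threshold when s18790 replicate 2 was left out of the shared model (adjusted p = 0.0263). Both differences use the same 4 control arrays.

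KLC1 probe ILMN_1726901 read 8.09, 7.99, 7.80 and 8.02 in controls, 8.17, 8.42, 7.95 and 8.28 with s18789, and 8.76, 8.57, 8.15 and 8.59 with s18790. The s18790 arrays lay above all controls, and s18789 replicate 3 lay within the control range. The probe rose by 0.54 ± 0.14 SE with s18790 (interval 0.23 to 0.85, limma adjusted p = 0.0362), while the s18789 difference was 0.23 (adjusted p = 0.986). The s18790 call ended under 10 of 22 alternatives, among them median scaling (adjusted p = 0.147) and leaving out control replicate 1 (0.0711), 2 (0.0894) or 3 (0.113), s18789 replicate 1 (0.0515) or 4 (0.0539), or s18790 replicate 1 (0.104) or 4 (0.0745).

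KLC2 encodes a second light chain, and its kept probe was dim, detected on 1 control array, 1 s18789 array and 3 s18790 arrays. Its values were 5.31, 5.34, 5.24 and 5.93 in controls, 5.76, 5.14, 5.36 and 5.24 with s18789, and 5.98, 6.45, 5.53 and 5.80 with s18790. The groups overlapped because control replicate 4 was high. The KLC2 difference was 0.49 with s18790 (interval 0.02 to 0.95, limma adjusted p = 0.178) and -0.08 with s18789, and 0.56 between the siRNAs (adjusted p = 0.150). Without s18790 replicate 2 the s18790 difference of KLC2 was 0.31, and without both arrays that stood apart 0.47 (limma adjusted p = 0.0543). With array weights it was 0.46 and passed (limma adjusted p = 0.0465).

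The kinesin-1 heavy chains, the motor subunits that the light chains join, gave 2 probes, and neither passed the test. KIF5B, the form made in most tissues, read 8.15, 7.83, 8.21 and 6.37 in controls, 7.35, 7.81, 8.23 and 8.29 with s18789, and 6.96, 4.95, 7.82 and 7.80 with s18790. Control replicate 4 and s18790 replicate 2 were the lowest arrays of their groups, and the groups overlapped. The KIF5B difference with s18790 was -0.76 ± 0.58 SE (interval -2.01 to 0.49, limma adjusted p = 0.446), and without s18790 replicate 2 it was -0.11 ± 0.40. Without both arrays that stood apart it was -0.54 ± 0.26 (limma adjusted p = 0.173). For s18790 against s18789 the KIF5B difference was -1.04 (limma adjusted p = 0.314), and -0.39 without s18790 replicate 2. KIF5C, a neuronal heavy chain, stood at -0.04 with s18790 and 0.22 with s18789. The s18790 value was 0.36 without replicate 2, on which KIF5C read 9.01 against 10.52 to 10.75 on the other arrays of that group. Without both arrays that stood apart the s18790 value of KIF5C was 0.23.

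Kinesin-3 motors carry synaptic vesicle precursors and other vesicles. KIF1A, the neuronal member, read 10.72, 10.79, 10.63 and 10.86 in controls, 10.85, 10.81, 10.62 and 10.63 with s18789, and 11.27, 11.27, 11.11 and 11.21 with s18790. All s18790 arrays of KIF1A lay above the other 8 arrays, and controls and s18789 covered nearly the same range. The rise with s18790 was 1.38-fold over control (log2 difference 0.47 ± 0.10 SE, interval 0.26 to 0.68, limma adjusted p = 0.0130). Against s18789 it was 0.49 ± 0.10 (interval 0.27 to 0.70, adjusted p = 0.0179), and the s18789 difference from control was -0.02 (interval -0.23 to 0.19).

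The KIF1A call against control ended with median scaling (adjusted p = 0.0839), with the s18789 arrays left out of the model (0.0571) and without control replicate 3 (0.0503). Its call against s18789 ended with median scaling (0.160), with only the groups compared (0.0703), and without s18789 replicate 3 (0.0723) or 4 (0.0670) or s18790 replicate 1 (0.0589). KIF1B, which carries mitochondria and vesicles, had 2 kept probes. Its differences with s18790 were -0.25 (ILMN_1735552) and -0.01 (ILMN_1743034), with limma adjusted p of 0.214 and 0.990.

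Kinesin-2 is built from KIF3 motors and the accessory subunit KIFAP3, and none of its 4 probes was called. The 2 probes of KIF3B stood at -0.004 and 0.14 with s18790, and KIF3C, a neuronal partner, at 0.37 (limma adjusted p = 0.184). Without s18790 replicate 3 the KIF3C difference was 0.52 (limma adjusted p = 0.0445). KIFAP3 read 9.05, 9.12, 8.99 and 8.62 in controls, 9.03, 8.95, 9.01 and 8.96 with s18789, and 9.34, 8.53, 9.40 and 9.40 with s18790. In s18790 3 arrays lay above all controls and replicate 2 lay below them. Its difference was 0.22 with all arrays (adjusted p = 0.480) and 0.43 ± 0.12 SE without s18790 replicate 2 (adjusted p = 0.0306). Without both arrays that stood apart it was 0.32 ± 0.09 (limma adjusted p = 0.0243). KIF3C and KIFAP3 were singled out for these fits after their values were seen.

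Kinesin-4 members differ in how they act on microtubule growth. The KIF21B probe was detected on no control array, on all 4 s18789 arrays and on 2 of 4 s18790 arrays. It read 5.22, 5.47, 5.15 and 5.56 in controls, 5.82, 5.71, 5.61 and 5.80 with s18789, and 5.84, 6.47, 5.54 and 5.70 with s18790. The s18789 arrays lay above every control, while s18790 replicate 3 lay just below control replicate 4. The KIF21B probe passed the filter through the siRNA groups, and neither difference from control passed the test in the fit reported. With s18790 it passed with array weights (limma adjusted p = 0.0283), without s18790 replicate 3 (0.0389) and without both arrays that stood apart (0.0288). The mean was at least 1.05-fold the control level with s18789 (limma adjusted p = 0.828) and at least 1.16-fold with s18790 (0.0818), as a ratio of measured means without its error. For this bound each control array counted at the lowest level of its detected probes, or at the KIF21B level itself where that was higher. KIF21A, which restrains microtubule growth, read 11.62, 11.54, 11.60 and 10.22 in controls and 11.10, 9.11, 11.81 and 11.59 with s18790. Its s18790 difference was -0.34 (interval -1.46 to 0.77), 0.25 without s18790 replicate 2, and -0.09 without both arrays that stood apart.

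**Figure D2:**
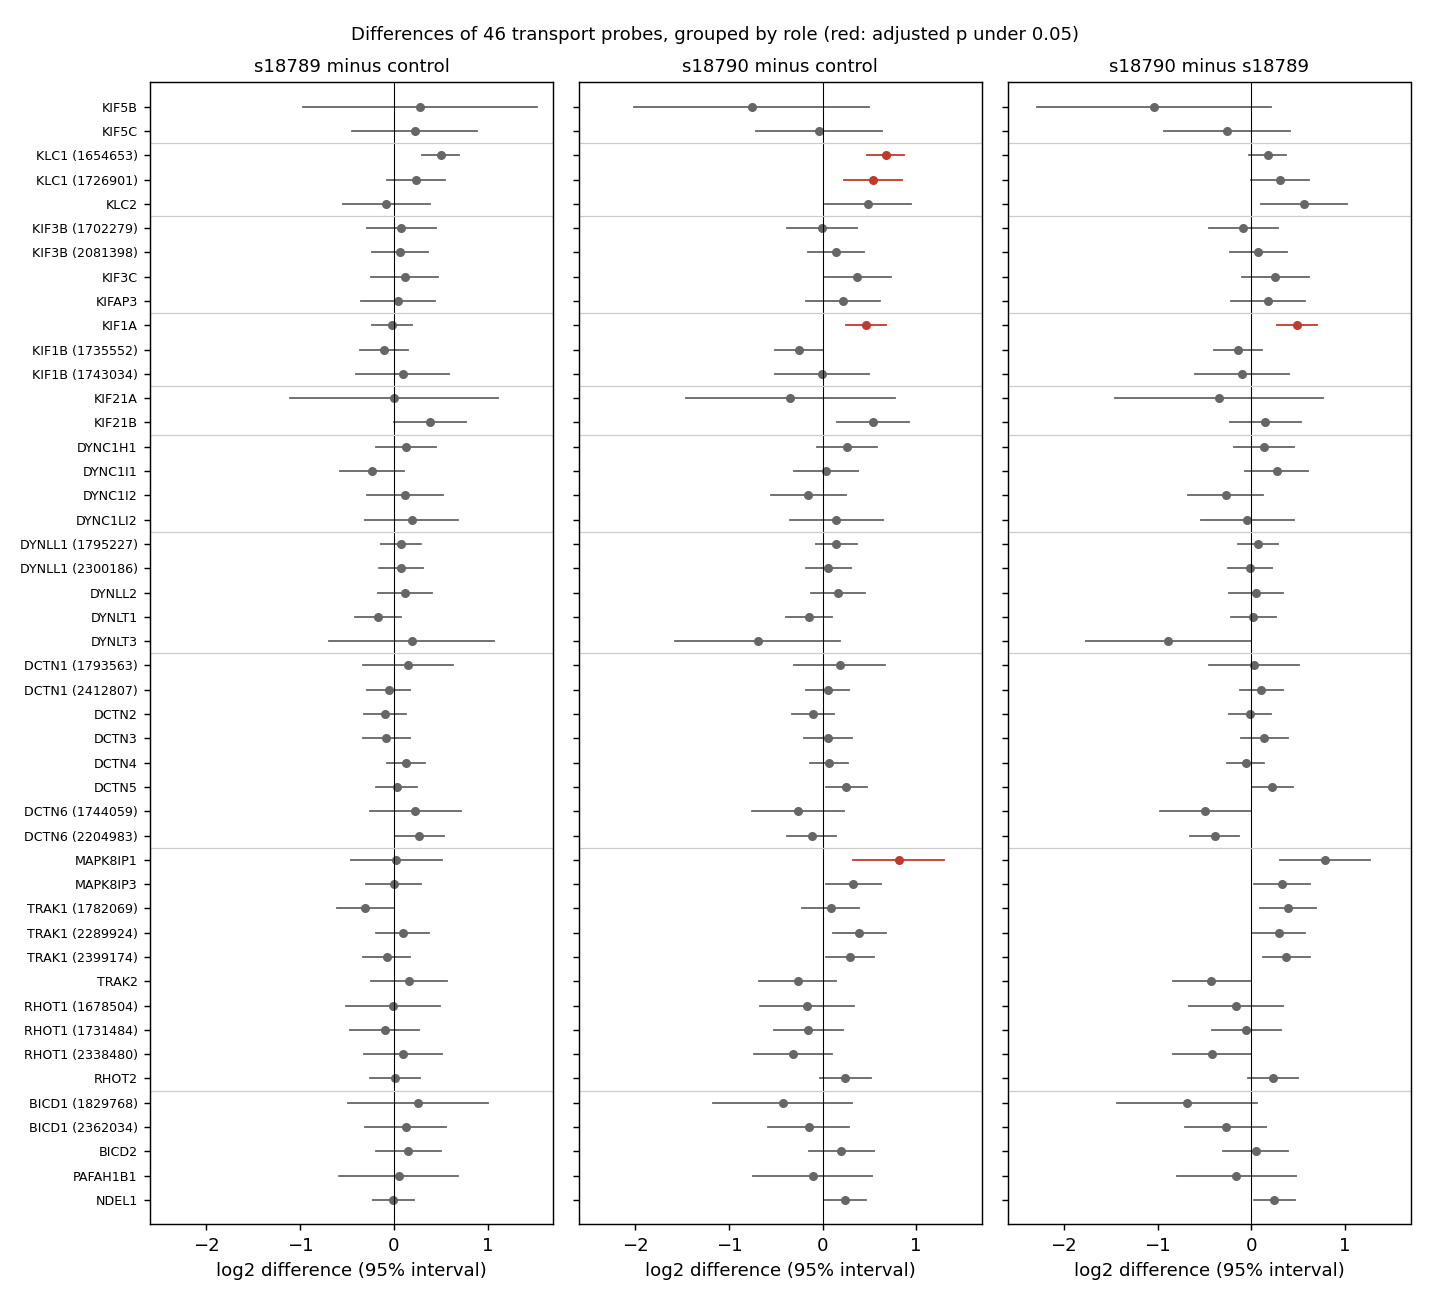
Log2 differences (points) with 95% intervals (lines) of the 46 member probes for each comparison (x axis), with probes on the y axis grouped by role between grey lines. Probes called at an adjusted p under 0.05 are red: both KLC1 probes, KIF1A and MAPK8IP1 for s18790 against control, and KIF1A between the siRNAs. KIF5B has the widest interval.

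Cytoplasmic dynein gave 0 called probes among 9 in every comparison. The motor subunit DYNC1H1 stood at 0.13 with s18789 and 0.26 with s18790, the latter with a limma adjusted p of 0.299. The intermediate chains, which bind dynactin, were at -0.23 (DYNC1I1) and 0.12 (DYNC1I2) with s18789, and at 0.04 and -0.15 with s18790. The light intermediate chain DYNC1LI2, which contacts cargo adaptors, was at 0.15 with s18790 (adjusted p = 0.731) and at 0.43 ± 0.13 SE without s18790 replicate 2 (adjusted p = 0.0464). Without both arrays that stood apart it was at 0.34 ± 0.11 and did not pass (limma adjusted p = 0.0588). DYNC1LI2 read 9.30 on s18790 replicate 2, against 10.31 to 10.54 on the other s18790 arrays. On control replicate 4 it read 9.73, against 10.01 to 10.16 on the other controls. DYNC1LI2 too was singled out after its values were seen.

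The dynein light chains held some of the narrowest intervals. The 2 probes of DYNLL1, a small dimeric hub protein, stood at 0.15 (interval -0.07 to 0.36) and 0.06 (interval -0.17 to 0.30) with s18790. DYNLL2, its close relative, was at 0.16, and DYNLT1 at -0.14 with s18790 and -0.17 with s18789. DYNLT3, a light chain of the Tctex family, read 7.72, 7.63, 7.75 and 6.60 in controls, 7.42, 7.52, 7.81 and 7.72 with s18789, and 6.96, 5.34, 7.71 and 6.91 with s18790. The DYNLT3 groups overlapped, with control replicate 4 and s18790 replicate 2 lowest. Its difference was -0.69 ± 0.41 SE with s18790 (interval -1.57 to 0.19, limma adjusted p = 0.315) and -0.23 ± 0.27 without s18790 replicate 2. Without both arrays that stood apart it was -0.50 ± 0.18 (limma adjusted p = 0.0778). For s18790 against s18789 the DYNLT3 difference was -0.89 (limma adjusted p = 0.228), and -0.42 without s18790 replicate 2.

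Dynactin, the complex that makes dynein processive, showed no call among 8 probes for DCTN1 to DCTN6. With s18790 the differences ran from -0.26 (DCTN6 probe ILMN_1744059) to 0.25 (DCTN5, a pointed-end subunit, limma adjusted p = 0.140). All 4 s18790 values of DCTN5, 9.43 to 9.67, lay above the controls, 9.25 to 9.39. DCTN1, the large subunit that touches the microtubule, had differences of 0.18 and 0.05 at its 2 probes. DCTN2, DCTN3 and DCTN4 stood at -0.10, 0.06 and 0.07. The 2 probes of DCTN6 stood at -0.49 and -0.39 with s18790 against s18789, and neither passed (adjusted p = 0.229 and 0.0864). Without s18790 replicate 2 these values were -0.25 and -0.31. The second, ILMN_2204983, was detected on 1 control array, all 4 s18789 arrays and 1 s18790 array, so that it passed the filter mainly through s18789.

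Among the kinesin and mitochondrial adaptors MAPK8IP1 rose with s18790. This gene encodes JIP1, a scaffold that binds kinesin light chains and kinases of the JNK pathway. MAPK8IP1 read 6.06, 5.76, 5.73 and 6.58 in controls, 6.19, 6.09, 5.98 and 5.97 with s18789, and 6.93, 7.44, 6.47 and 6.54 with s18790. Control replicate 4 lay above s18790 replicates 3 and 4, and s18790 replicate 2 was the highest array. The probe rose 1.76-fold with s18790 (log2 difference 0.81 ± 0.22 SE, interval 0.33 to 1.3, limma adjusted p = 0.0421). The difference was 0.49 without background correction and 0.49 with the authors' deposited log2 values, both still called (0.0454 and 0.0456). With s18789 the difference was 0.03 (interval -0.46 to 0.51), and between the siRNAs, whose arrays did not overlap, it was 0.79 (adjusted p = 0.0657). The MAPK8IP1 rise lost its call under 13 of 22 alternatives, which included leaving out any single array but control replicate 4, s18790 replicate 3 or s18790 replicate 4 (adjusted p from 0.0524 to 0.128 for the other 9). Without s18790 replicate 2 its difference was 0.61 (0.0524), and without both arrays that stood apart 0.80 (0.00243).

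MAPK8IP3, which encodes JIP3, another kinesin and dynein scaffold, stood at 0.33 with s18790 (limma adjusted p = 0.156) and -0.002 with s18789. TRAK1, which ties mitochondria to kinesin-1, had 3 probes, with differences of 0.08, 0.39 and 0.30 with s18790 and of -0.31, 0.10 and -0.08 with s18789. The smallest adjusted p of these was 0.0837, for ILMN_2289924, whose 4 s18790 values, 9.16 to 9.38, lay above the controls, 8.65 to 9.00. TRAK2, its relative, stood at -0.27 with s18790. Miro proteins anchor the TRAK proteins on mitochondria, and the 3 probes of RHOT1 stood at -0.17, -0.15 and -0.32 with s18790, while RHOT2 was at 0.24. Without s18790 replicate 2 those of RHOT1 were 0.12, 0.00036 and -0.12, and TRAK2 was at -0.05. Without both arrays that stood apart the RHOT1 probes stood at 0.03, -0.12 and -0.26, and TRAK2 at -0.10. None of these passed in any comparison.

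The dynein adaptors and regulators gave 5 probes and no call. BICD1, which links dynein to Golgi vesicles, had 2 probes, and ILMN_1829768 read 6.78, 6.73, 6.53 and 5.70 in controls, 6.16, 6.80, 6.96 and 6.85 with s18789, and 6.19, 4.91, 6.53 and 6.40 with s18790. The second BICD1 probe, ILMN_2362034, read 5.67, 5.93, 5.91 and 5.77 in controls, 6.03, 5.71, 5.85 and 6.19 with s18789, and 5.62, 5.14, 6.29 and 5.64 with s18790. At both probes s18790 replicate 2 was the lowest of the 12 arrays and the groups overlapped. The s18790 differences were -0.43 (interval -1.17 to 0.32) and -0.15, and -0.06 and 0.03 without that array. Without both arrays that stood apart they were -0.30 and 0.01. For s18790 against s18789 the BICD1 differences were -0.68 (limma adjusted p = 0.269) and -0.27, and -0.32 and -0.09 without s18790 replicate 2. BICD2 stood at 0.20, PAFAH1B1, which encodes the dynein regulator LIS1, at -0.11, and NDEL1, which recruits LIS1, at 0.24 (limma adjusted p = 0.161). Without s18790 replicate 2 PAFAH1B1 was at 0.26, and without both arrays that stood apart at 0.11. The 4 s18790 values of NDEL1, 9.26 to 9.50, lay above the controls, 8.97 to 9.20.

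**Figure D3:**
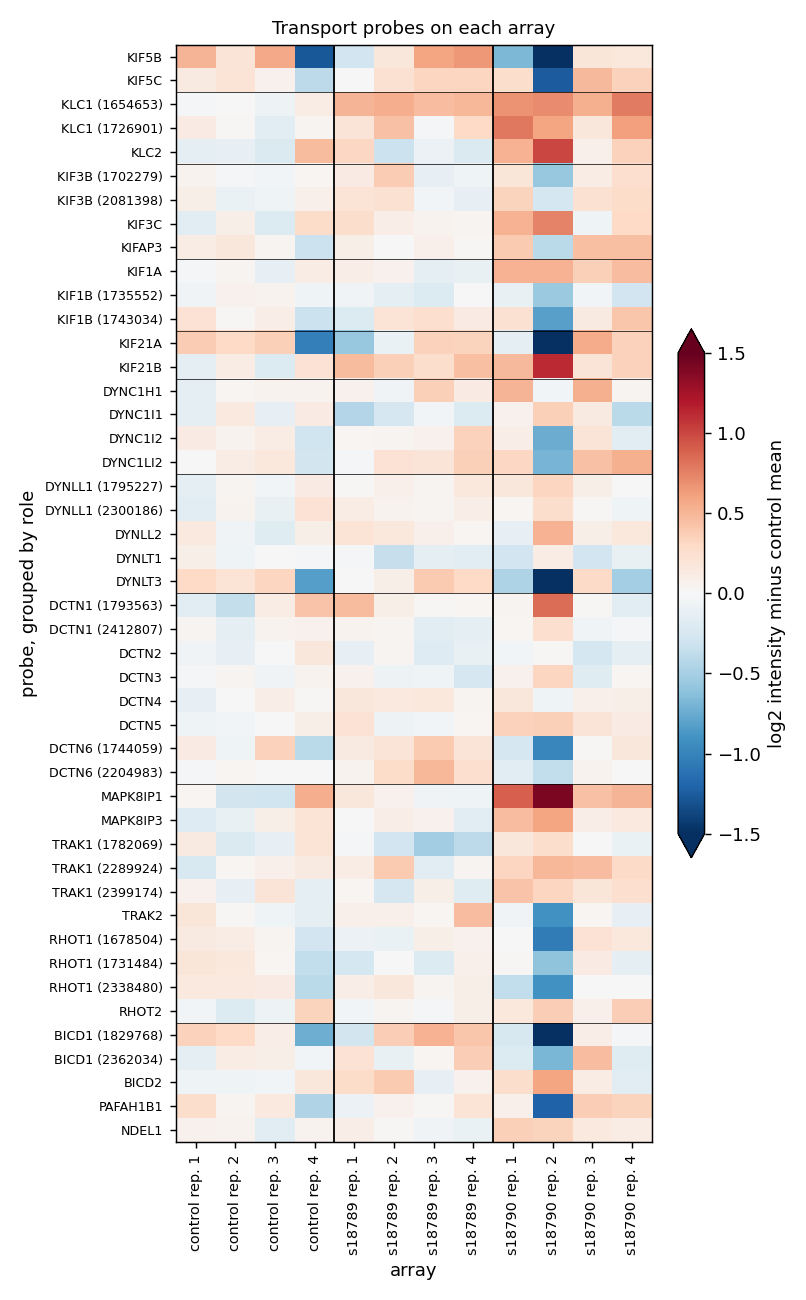
Log2 intensity minus the control mean (colour, saturating at 1.5 either way) of the 46 member probes (y axis, by role) on each of the 12 arrays (x axis). KLC1 probe ILMN_1654653 is raised on all 8 siRNA arrays, and KIF5B, KIF21A, DYNLT3 and BICD1 are lowest on s18790 replicate 2.

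Seen as a list, the members had a called share near that of the array as a whole. The median log2 difference over the 46 probes was 0.078 with s18789 and 0.066 with s18790, against 0.011 and 0.0062 over all probes tested. The s18790 median of the members was 0.119 without s18790 replicate 2 and 0.0049 with median scaling. With s18790, 12 member probes had an unadjusted p under 0.05, all of them higher, where 24.9% of all probes did, 13.6% higher and 11.4% lower. Of these 12, KIF21B and KLC2 passed the filter mainly through siRNA arrays, on which they were high, so their direction is no separate evidence. Groups did not overlap for 6 member probes with s18790, against 13.3% of all probes, and for 3 with s18789, against 7.08%. Of those 3, KIF21B and DCTN6 probe ILMN_2204983 passed the filter through s18789, in which they were high. Between the siRNAs 15 member probes had an unadjusted p under 0.05, 10 of them higher with s18790, against 21.6% of all probes, and 6 did not overlap, against 14.0%. Among the 15 were KLC2 and the same DCTN6 probe, each of which passed the filter mainly through the siRNA group where it was higher. A member's 95% interval, not adjusted for the number of probes, reached a median of 0.34 to either side with 4 arrays a group. A call after adjustment could need a larger difference. With s18789 the difference of 0.50 at KLC1 probe ILMN_1654653 was not called.

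Of the 35 genes, 9 had several kept probes, 20 in all. With s18790 all probes of a gene had the same sign for 8 of these 9, and KIF3B, with a value near 0, was the exception. Without s18790 replicate 2, with control replicate 4 kept, that number was 5 of 9. With s18789 the same held for 5 of 9. Probes of a gene share its RNA and are not replicates.

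The arrays that stood apart did so for the members too, and by the same probes. On s18790 replicate 2, 23 of 46 member probes lay more than 0.5 from the mean of the other s18790 arrays, 18 below and 5 above. On control replicate 4 the number was 11, with 8 below and 3 above. The same 8 probes were low on both arrays: those of KIF5B, KIF21A, DYNLT3, KIF5C and PAFAH1B1 and 1 each of BICD1, DCTN6 and RHOT1. MAPK8IP1, KLC2 and a DCTN1 probe were high on both. KIF5B deviated by -2.58 on s18790 replicate 2 and by -1.69 on control replicate 4. Over the 46 probes the deviations on the pair of arrays had a Pearson r of 0.93, against 0.81 over all 15922 probes, as a description of 2 arrays that share the normalization. On control replicate 4 and s18790 replicate 2, KLC1 probe ILMN_1654653 deviated by 0.15 and 0.05 and KIF1A by 0.15 and 0.07. The share of probes detected was lowest on the same arrays, at 29.1% and 29.3% against 30.1% to 33.6% on the others. Leaving out s18790 replicate 2 turned the sign of the s18790 difference for 14 of the 46 probes, none of them called and none beyond 0.34 in size with all arrays. That fit kept control replicate 4, so probes low on both arrays were shifted upward. The number of turned signs without both arrays is not given here. What sets these arrays apart was not tested.

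**Figure D4:**
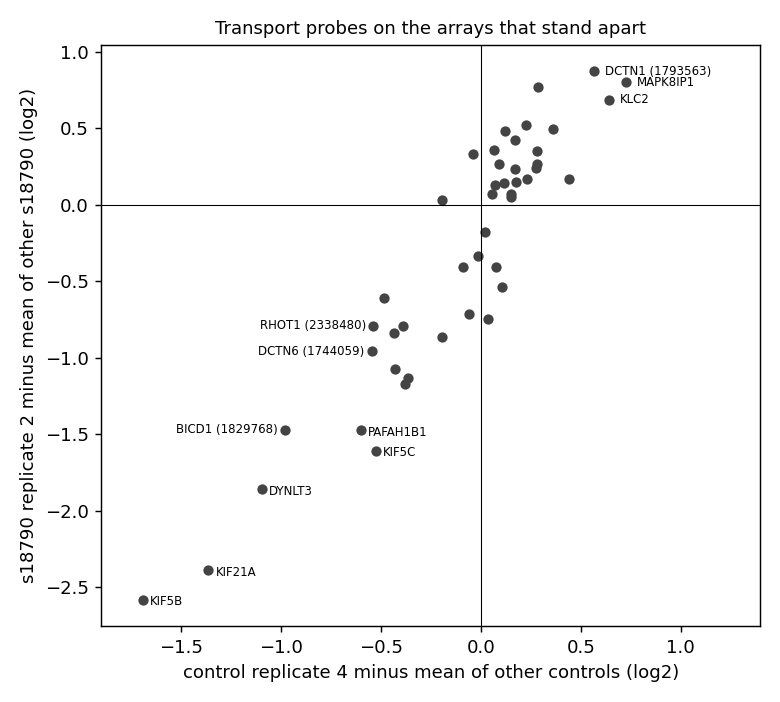
Deviation of each member probe on control replicate 4 from the mean of the other controls (x axis, log2) against its deviation on s18790 replicate 2 from the other s18790 arrays (y axis, log2). Each point is 1 of 46 probes, and names mark those beyond 0.5 on both, with KIF5B lowest at -1.69 and -2.58.

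Left out of the member list are 60 further transport genes, such as other dynactin subunits, HOOK and FEZ adaptors and mitofusins, of which 37 had a kept probe and 54 probes were tested. With s18790 1 of the 54 was called, or 1.85% against 8.32% of all probes. HTT, the huntingtin scaffold that can hold both kinesin and dynein, read 6.09, 6.18, 6.08 and 6.42 in controls, 6.37, 6.21, 6.34 and 6.35 with s18789, and 6.53, 6.77, 6.81 and 6.66 with s18790. All s18790 values of HTT lay above the other 8 arrays, with a difference of 0.50 ± 0.11 SE (limma adjusted p = 0.0141). The call ended with median scaling (0.127), with only the groups compared (0.0717), and without control replicate 1 (0.0528) or 3 (0.0518).

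Between the siRNAs 1 of these 54 probes was called, or 1.85% against 4.20% of all probes. KIFC2, a kinesin thought to move toward microtubule minus ends, read 7.50, 7.86, 7.78 and 7.94 in controls, 7.35, 7.47, 7.45 and 7.70 with s18789, and 8.05, 7.95, 8.10 and 8.25 with s18790. It was higher with s18790 than with s18789 by 0.60 ± 0.12 SE (limma adjusted p = 0.0182), while its differences from control were -0.28 with s18789 (0.788) and 0.32 with s18790 (0.122). That call ended with median scaling (0.106), with only the groups compared (0.0513), and without s18789 replicate 1 (0.0585), 2 (0.0574) or 3 (0.0684) or s18790 replicate 1 (0.0515). With s18789 none of the 54 was called by limma, and 1 had an unadjusted p under 0.05.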

How the data were processed

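Total RNA of 12 SH-SY5Y samples was hybridised to single-colour Illumina bead arrays. The deposited table holds linear mean bead intensity per probe, with GenomeStudio named in the submitters' processing notes, and its array medians ranged from 63.1 to 70.2. A detection p-value stands beside each intensity per the file headers. The authors' second deposited table holds log2 values (median 6.33 on every array), and it served as an alternative, its transform being unstated.

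Of 47321 probes, 30113 had 1 gene symbol in the platform annotation, 8 had several and 17200 were unnamed here. Symbols were checked by gene identifier against RefSeq, and 0 changed. Windows for 32 of the 40 member genes matched the RefSeq promoter table.

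Intensities were corrected by the normal-exponential model through the detection p-values (offset 16), put on the log2 scale and quantile normalized with limma 3.58.1 in R 4.3.3. All 12 arrays entered 1 linear model with a mean per group (9 residual degrees of freedom), with Benjamini-Hochberg adjustment over 15922 kept probes. The code was tried on simulated independent arrays with 1 spread per probe. Those do not copy arrays that stand apart together, so the trial does not bear on calls that depend on them. Errors are SE of this fit. Probes are given by array where called or at least 0.5 (log2) apart in a comparison, together with other probes of those genes. Members and lists were chosen with earlier results of these data known. The number of arrays limits the precision, and the chip of each array was not used here.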

Additional observations from a re-analysis of the deposited data

Results flagged for a closer look

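In each group of 4 arrays, the gap between the outermost value and its neighbour was compared with Dixon's critical ratio for 4 values, over the 13 probes of SETD1A and the genes given by array, 39 groups in all. Chance marks about 5% of groups, and 3 were marked. DYNLT3 read 6.60 on control replicate 4, against 7.63 to 7.75 on the other controls. On the same array KLC2 read 5.93, against 5.24 to 5.34. HTT read 6.21 on s18789 replicate 2, against 6.34 to 6.37 on the other arrays of that group. Tested directly between the siRNAs, KIF1A differed by 0.49 and KIFC2 by 0.60 (log2, s18790 minus s18789).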

How the results depend on the processing

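Over 22 alternatives the member probes called with s18790 numbered 4 in the fit reported, 1 with median scaling or with only the groups compared, 2 without the filter on dim probes, 7 with array weights, and 1 to 6 with an array left out. KIF21B was among the 7 and among the 6 without s18790 replicate 3, and KLC2 was among the 7. Both probes passed the filter mainly through siRNA arrays, on which they were high. With s18789 the count was 0 and became 1, each time KLC1 probe ILMN_1654653, without background correction, with the authors' deposited log2 values, without the filter, with array weights, with only the groups compared and without both arrays that stand apart, and 0 to 1 with an array left out. Between the siRNAs it was 1, and 0 with median scaling or only the groups compared, 4 with array weights, 3 without both arrays, and 0 to 2 with an array left out. Of 389 values of 18 named differences under the alternatives, 327 kept their side of the threshold. A call was lost by 48 and gained by 14, and 0 changed sign. The 18 were called or at least 0.5 apart in the same data, or were SETD1A, so a change of sign was unlikely. Only differences called in the fit reported could lose a call, and most of the others stayed uncalled. Of all 46 member probes, 14 changed the sign of the s18790 difference from control without s18790 replicate 2, with control replicate 4 kept. Median scaling moved the median of all probes by -0.15 between the siRNAs and the split of s18790 calls from 642 higher and 683 lower to 173 and 636. Over all probes the calls with s18790 numbered 430 with only the groups compared and 3117 with array weights against 1325, and with s18789 80 without s18790 replicate 2 against 15.

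The replicate numbers were not taken as a pairing, since the deviations of same-numbered samples correlated over 0.1 in 6 of 12 pairs (r from -0.58 to 0.58). With the replicate number as a block the MAPK8IP1 call ended (adjusted p = 0.0698), as did that of SETD1A (0.0510), and the counts of member calls were 0 with s18789, 3 with s18790 and 1 between the siRNAs. Dim probes such as KLC2 and KIF21B lie near background.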
